A study of Gallus gallus with 45 samples.

Results

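The step from 6 to 7 somites in the chick embryo was compared in the dissected midbrain-level neural crest domain, with 4 libraries at 7ss (the stage of 7 somites) against 3 libraries at 6ss. These 7 libraries were chosen by their stage and are 7 of the 45 bulk RNA libraries of a series that covers 12 stages between HH5 (Hamburger-Hamilton stage 5) and 10ss. All embryos of both groups were wild type and untreated, the labels call the tissue neural crest at both stages, and each library is a pool of tissue from several embryos, so a value is an average over all cells dissected. The labels do not say whether the pools came from separate collections. The p-values measure the spread between pools of the same stage, estimated over all 12 stages and not from these 7 libraries alone. The series collected stages close together in time to follow how the neural plate border turns into neural crest, and this comparison asks which genes change over 1 somite, with the neural folds fusing and the first crest cells about to leave.

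Cranial neural crest arises at the border of the neural plate, where transcription factors such as Pax3, Pax7 and Msx1 prepare the tissue and specifiers such as FoxD3, Snai2, Ets1 and the SoxE factors Sox8, Sox9 and Sox10 follow. The cells then lose their epithelial contacts, exchange cadherins, remodel the surrounding matrix and migrate. Around the same time the midbrain-hindbrain region is patterned by Wnt and Fgf signals, while factors of the most anterior brain are kept out of it.

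The 3 libraries of 6ss held 17.0 to 20.6 M reads counted in genes (M, 1e6) and the 4 libraries of 7ss held 20.1 to 24.9 M, within the 15.4 to 30.5 M of all 45. The methods of the study state more mapped reads per sample than these deposited counts sum to. Replicate 3 of 7ss stood apart. Over the 8172 genes with a mean of at least 5 CPM (counts scaled to 1e6 per library), its root mean square difference from each of the other 6 libraries was 0.67 to 0.74 on the log2 scale, against 0.38 to 0.60 for the 15 pairs without it. Replicate 1 of 6ss had the highest summed level of notochord and floor plate markers, at 85.9 CPM against 37.97 and 43.4 CPM in replicates 2 and 3. The endoderm markers summed highest in 6ss replicate 2, at 229 CPM against 118 and 101 CPM in replicates 1 and 3. Ribosomal protein genes took 7.80% to 10.0% of reads at 6ss and 5.17% to 8.00% at 7ss. Values without 7ss replicate 3 or 6ss replicate 1 are given beside several results that they moved.

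**Figure D1:**
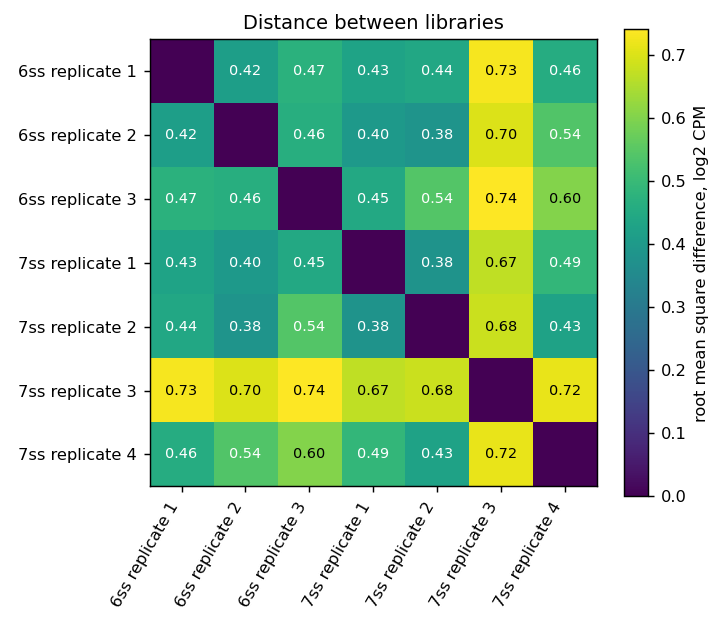
Root mean square difference in log2 CPM between each pair of the 7 libraries, over the 8172 genes with a mean of at least 5 CPM. Both axes list the 3 libraries of 6ss and the 4 of 7ss, and the color gives the difference. The row of 7ss replicate 3 holds values of 0.67 to 0.74, and all other pairs lie between 0.38 and 0.60.

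Few genes passed the threshold over this somite. A gene was called where the adjusted p of edgeR's quasi-likelihood test was below 0.05 and the fold change above 0.75 on the log2 scale. Of the 18525 genes tested, 1 was called higher at 7ss (0.0054%) and 0 lower. Before adjustment, 944 genes were higher (5.1%) and 800 lower (4.32%) at a p below 0.05, together 9.41% of all. Levels did not overlap between the stages for 822 genes that were higher at 7ss (4.44%) and 594 that were lower (3.21%), together 7.64% of all genes. Of the 8172 genes with a mean of at least 5 CPM, 5061 (61.9%) had a 95% interval that lay entirely within 0.75 of zero on the log2 scale. Without any 1 of the 7 libraries, edgeR called 0 genes. DESeq2's Wald test, fitted to the same counts, called 36 genes (0.194%), of which 13 were higher (0.0702%) and 23 lower (0.124%) at 7ss.

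The genes that DESeq2 called were examined after their values were seen, by the rule that the named genes follow. That rule keeps only genes whose 2 stages do not overlap, so the lack of overlap in these genes is not a separate result. Of the 36, 10 that were higher and 7 that were lower met the rule, and edgeR gave these 17 adjusted p of up to 0.225. COL9A1 encodes a chain of collagen IX, a collagen that sits on the surface of fibrils in cartilage and embryonic matrix. It was measured at 16.9, 22.4 and 19.5 CPM in the 3 libraries of 6ss and at 54.6, 52.6, 53.7 and 42.7 CPM in the 4 libraries of 7ss. The stages did not overlap, and the log2 fold change was 1.38 ± 0.34 (edgeR adjusted p = 0.184, DESeq2 adjusted p = 0.0301). COL9A3, which encodes another chain of the same collagen, was at 6.84, 5.57 and 3.04 CPM at 6ss and at 13.6, 19.0, 13.8 and 14.8 CPM at 7ss. Its log2 fold change was 1.57 ± 0.39 (edgeR adjusted p = 0.186, DESeq2 adjusted p = 0.0297). Both chains were thus 2.60 and 2.96 times as high at 7ss. COL9A2, a further collagen IX gene, was also tested, and its stages overlapped. COL2A1, the collagen on whose fibrils collagen IX sits, was at 14.6 to 16.6 CPM at 6ss and 19.6 to 22.8 CPM at 7ss (edgeR adjusted p = 0.527).

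TMEM26, which encodes a membrane protein, was at 36.9, 27.0 and 23.9 CPM at 6ss and 44.3, 52.5, 64.2 and 49.8 CPM at 7ss. Its log2 fold change was 0.85 ± 0.17, with an adjusted p of 0.138 in edgeR and 0.00347 in DESeq2. Genes that DESeq2 called higher by this rule also included CSNK1G2 (a casein kinase), FAM8A1, IPPK (which makes inositol hexakisphosphate), ECHDC3, TRAF6 (a ubiquitin ligase of immune receptor signaling) and CYP39A1 (a hydroxylase of oxysterols), with edgeR log2 fold changes of 0.83 to 1.77 and no overlap. In all 6 of these genes, and in TMEM26, the highest value was that of 7ss replicate 3, among them 39.0 CPM for CSNK1G2, 27.97 for FAM8A1, 42.0 for ECHDC3 and 34.6 for CYP39A1. Without that library the log2 fold changes of the 6 genes were 0.60 to 1.40. From 5ss to 8ss, the log2 differences of FAM8A1, IPPK and TRAF6 were 0.19, 0.11 and 0.11. Those of ECHDC3, CYP39A1 and CSNK1G2 were 0.59, 0.63 and 1.89. FAM8A1 averaged 16.5 CPM at 5ss, 7.93 CPM at 6ss and 18.3 CPM at 7ss.

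Among the genes that DESeq2 called lower was SHISA2, of the Shisa family known from Xenopus to hold back Fgf and Wnt receptors inside the cell. SHISA2 was at 57.7, 43.0 and 81.2 CPM at 6ss and 25.8, 17.1, 21.4 and 26.3 CPM at 7ss. The stages did not overlap, and the log2 difference was -1.42 ± 0.32 (edgeR adjusted p = 0.138, DESeq2 adjusted p = 0.0134). FGFR2, a receptor for fibroblast growth factors, was at 45.7, 49.8 and 43.3 CPM at 6ss and 23.8, 22.9, 18.9 and 32.6 CPM at 7ss, a difference of -0.91 ± 0.24 on the log2 scale. The adjusted p was 0.214 in edgeR and 0.0389 in DESeq2. ANXA7, a calcium-dependent membrane-binding annexin, BHLHE23, a basic helix-loop-helix factor, and GAS2, a linker of the actin cytoskeleton, had log2 differences of -1.02, -1.79 and -0.92. RPL21 encodes a protein of the large ribosomal subunit and was at 2265, 2560 and 4109 CPM at 6ss and 2043, 1340, 1154 and 1144 CPM at 7ss. Its mean was 1734 CPM at 5ss and 1738 CPM at 8ss. It moved with the share of all ribosomal protein genes given above, whose part in the difference was not tested.

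CHRD, the gene of the Bmp antagonist Chordin made in the midline mesoderm, rested on 1 library. It was at 24.6 CPM in 6ss replicate 1, at 2.26 and 2.43 CPM in the other libraries of 6ss, and at 1.01, 1.90, 2.00 and 1.23 CPM at 7ss. The log2 difference was -2.67 with all libraries and -0.62 without 6ss replicate 1. FOXA1, a pioneer factor of endoderm and midline, went from 13.0, 3.57 and 1.94 CPM at 6ss to 1.54, 1.32, 1.63 and 1.19 CPM at 7ss, a log2 difference of -2.12 that was -0.97 without the same library. Other midline markers depended less on that library. FOXA2, at a mean of 0.78 CPM, had a log2 difference of -2.42, and -1.77 without 6ss replicate 1. NOTO was at 14.2, 12.6 and 19.6 CPM at 6ss and 7.80 to 9.49 CPM at 7ss (edgeR adjusted p = 0.458). Its log2 difference was -0.83, and -0.90 without 6ss replicate 1.

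**Figure D2:**
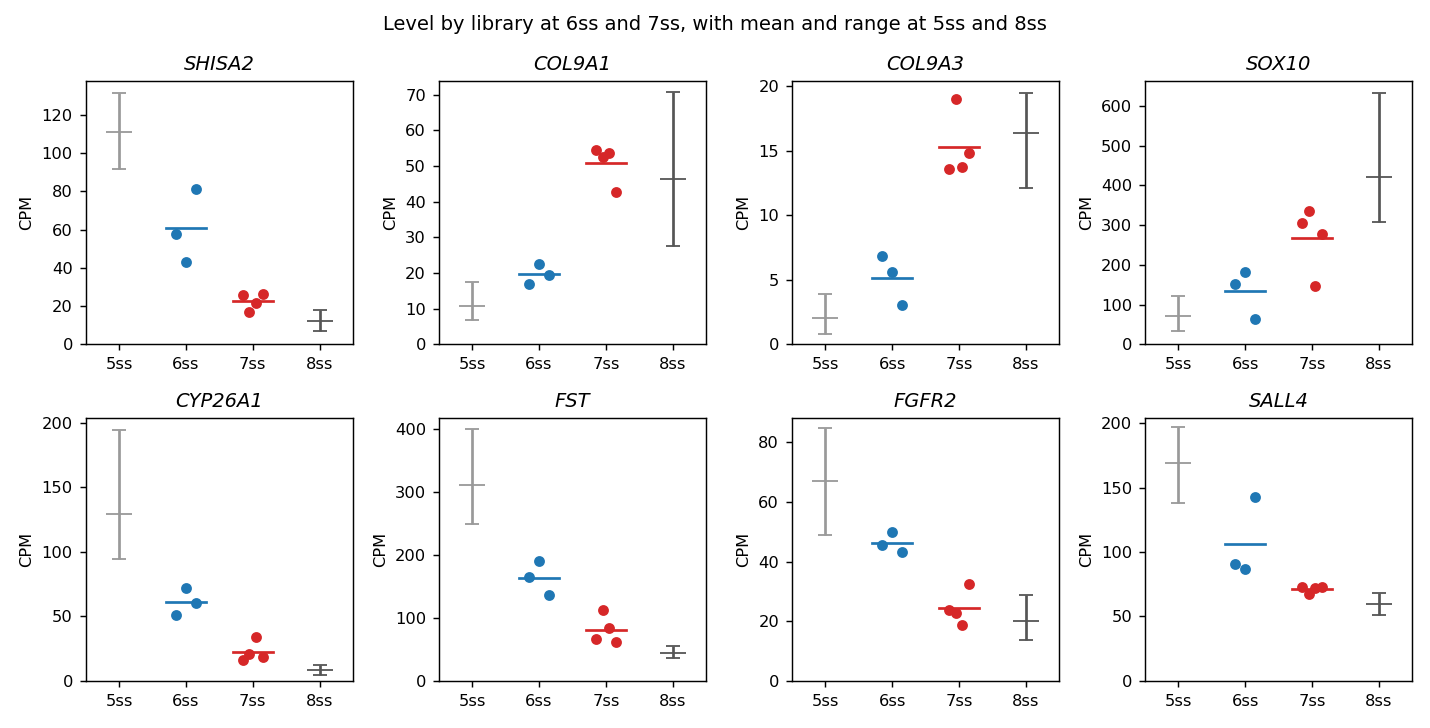
Levels of 8 genes in CPM on linear axes from 0. Points are libraries of 6ss (blue, 3) and 7ss (red, 4) with a line at the mean, and gray bars give the mean and range at 5ss (4 libraries) and 8ss (3 libraries). The points of 6ss and 7ss do not overlap except for SOX10, and none of the 8 genes passed edgeR's test from 6ss to 7ss.

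None of the 16 neural crest specifiers and none of the 12 measured neural plate border genes passed the test, in edgeR or in DESeq2. At a p below 0.05 before adjustment, 1 specifier was higher and 2 were lower, and 1 border gene was higher and 1 lower, beside 5.1% and 4.32% of all genes. The median log2 difference was -0.28 over the specifiers and -0.22 over the border genes, beside 0.00070 over all genes. Without 7ss replicate 3 both medians lay nearer to zero, at -0.083 and -0.030. No specifier had a 95% interval entirely within 0.75 of zero, so a change of that size was not excluded by these libraries for any of them.

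SOX10, the SoxE factor that marks crest cells as they become migratory, was at 151, 183 and 64.5 CPM at 6ss and at 306, 336, 147 and 278 CPM at 7ss. The highest library of 6ss was above the lowest of 7ss, and the log2 difference was 1.00 ± 0.40, with a 95% interval of 0.19 to 1.82 (edgeR adjusted p = 0.461). SNAI2, the Snail family repressor of epithelial genes, was at 569, 711 and 505 CPM at 6ss and 479, 491, 337 and 422 CPM at 7ss. All 4 libraries of 7ss were below those of 6ss, with a log2 difference of -0.46 and an interval of -0.97 to 0.053. At 5ss and 8ss SNAI2 had means of 378 and 316 CPM, also below 6ss. TFAP2A, an early specifier, also did not overlap, at 57.6 to 79.8 CPM at 6ss and 46.0 to 53.9 CPM at 7ss, with a log2 difference of -0.38. TFAP2A averaged 47.5 CPM at 5ss and 34.5 CPM at 8ss.

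For ETS1, a factor specific to cranial crest, the level was 261, 257 and 321 CPM at 6ss and 537, 354, 144 and 259 CPM at 7ss. The 7ss libraries spanned the range of 6ss on both sides, and the log2 difference was 0.21 with an interval of -0.58 to 1.00, and 0.45 without 7ss replicate 3. SOX9 was at 39.2, 40.0 and 41.6 CPM at 6ss and 41.6, 36.2, 7.86 and 27.7 CPM at 7ss, so that 7ss replicate 3 was well below all others. The log2 difference of SOX9 was -0.51 with that library and -0.20 without it. FOXD3 was at 6.05, 3.87 and 8.32 CPM at 6ss and 8.54, 7.51, 7.35 and 7.48 CPM at 7ss, with an interval of -0.68 to 1.37. TWIST1, a factor of head mesenchyme, was at 26.3, 10.6 and 7.95 CPM at 6ss and 2.75, 10.6, 2.00 and 5.25 CPM at 7ss. Its log2 difference of -1.54 was -0.86 without 6ss replicate 1.

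Of the border genes, PAX7 was at 77.5, 60.8 and 81.2 CPM at 6ss and 83.2, 68.1, 26.1 and 58.0 CPM at 7ss, and its log2 difference moved from -0.31 to -0.07 without 7ss replicate 3. MSX1 was at 208, 248 and 326 CPM at 6ss and 198, 174, 107 and 102 CPM at 7ss, with no overlap and a log2 difference of -0.84. Its mean was 122 CPM at 5ss and 124 CPM at 8ss, both below 6ss. PAX3 was at 17.1, 18.7 and 18.8 CPM at 6ss and 25.8, 30.8, 16.0 and 32.0 CPM at 7ss. PAX3 was thus higher in all libraries of 7ss except replicate 3, with a log2 difference of 0.52 (edgeR adjusted p = 0.505).

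**Figure D3:**
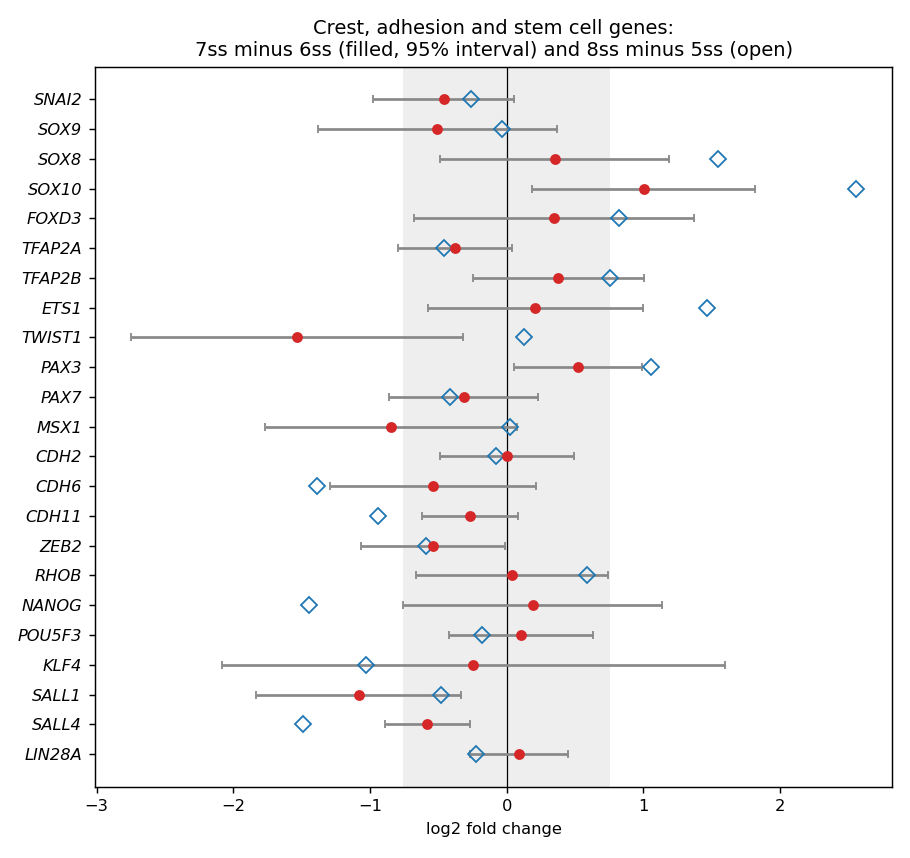
Log2 fold change of 23 crest, border, adhesion and stem cell genes. Filled points give 7ss minus 6ss with the 95% interval as a bar, open diamonds give 8ss minus 5ss from other libraries without an interval, and the gray band marks 0.75 on either side of zero. None of the filled points passed the test. Of the open diamonds, SOX8, SOX10, ETS1 and PAX3 were called higher and CDH6, CDH11 and SALL4 lower.

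Adhesion genes were measured more tightly than the specifiers. None of the 23 genes of adhesion and of the epithelial-to-mesenchymal transition passed in edgeR or DESeq2. At a p below 0.05 before adjustment, 3 were higher and 2 lower, beside 5.1% and 4.32% of all genes. The median log2 difference of the 23 was -0.08, and 11 of them had an interval within 0.75 of zero. Such an interval was found for 28.3% of all genes and 61.9% of those with a mean of at least 5 CPM. CDH2, the N-cadherin of the neural tube, was at 48.8, 51.5 and 44.4 CPM at 6ss and 56.7, 58.7, 24.2 and 54.1 CPM at 7ss. Its log2 difference was 0.005 with an interval of -0.49 to 0.50, its sign depended on the scaling, and it was 0.23 without 7ss replicate 3. CDH11, a cadherin of migrating crest, was at 53.0 to 66.6 CPM at 6ss and 44.9 to 61.8 CPM at 7ss, with an interval of -0.62 to 0.08. EPCAM, an epithelial adhesion protein, was at 330 to 366 CPM and 289 to 383 CPM, with an interval of -0.30 to 0.18. These 3 genes did not differ by more than 0.75 within their intervals.

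CTNND1, the p120-catenin that binds cadherin tails, did not overlap, at 11.9 to 15.3 CPM at 6ss and 17.6 to 25.7 CPM at 7ss, with a log2 difference of 0.64. CTNND1 averaged 15.6 CPM at 5ss and 15.6 CPM at 8ss, both below 7ss. CLDN1, a tight junction claudin, was at 1281, 1123 and 1150 CPM at 6ss and 976, 840, 975 and 758 CPM at 7ss. It was lower in every library of 7ss, by 0.42 on the log2 scale (edgeR adjusted p = 0.457). ZEB2, a repressor of epithelial genes, was at 66.5 to 88.7 CPM at 6ss and 25.9 to 75.1 CPM at 7ss.

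The matrix and protease list was the 1 process list in which DESeq2 called genes higher, and these were COL9A1 and COL9A3. None of its 37 measured genes passed in edgeR, and the median log2 difference was 0.08. At a p below 0.05 before adjustment, 5 of its genes were higher and 2 lower, beside 5.1% and 4.32% of all genes. Without overlap, 5 genes were higher and 1 was lower, beside 4.44% and 3.21% of all genes. Over the 497 genes tested from all lists together, 21 were higher and 41 lower without overlap. FN1, the fibronectin on which crest cells migrate, was at 141, 115 and 182 CPM at 6ss and 100, 86.8, 62.2 and 118 CPM at 7ss, with a log2 difference of -0.67 (edgeR adjusted p = 0.336). HAS2, the main enzyme that makes hyaluronan in the embryo, was at 8.48, 11.6 and 6.31 CPM at 6ss and 20.8, 19.9, 9.54 and 9.82 CPM at 7ss. The libraries of 7ss formed an upper and a lower pair, of which the lower overlapped with 6ss. ITGB3, an integrin subunit, was at 96.6 to 136 CPM at 6ss and 139 to 171 CPM at 7ss.

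Of 39 measured receptors and guidance genes of migration, none passed in either test, and the median log2 difference was -0.04. Before adjustment, 0 were higher and 2 lower at a p below 0.05, beside 5.1% and 4.32% of all genes. CXCR4, the receptor of the chemokine Cxcl12, was at 315, 470 and 247 CPM at 6ss and 868, 570, 350 and 311 CPM at 7ss, with overlap and a log2 difference of 0.61. CXCL12 itself was at 26.3, 31.4 and 17.1 CPM at 6ss and 11.7, 14.3, 14.4 and 15.7 CPM at 7ss. The ligand was lower in every library of 7ss, by 0.83 on the log2 scale (edgeR adjusted p = 0.333). Its mean was 38.2 CPM at 5ss and 26.1 CPM at 8ss, both above 7ss. EPHA7, an ephrin receptor, was at 12.3 to 19.2 CPM at 6ss and 7.03 to 9.75 CPM at 7ss. Among 23 measured genes of crest lineages, none passed in either test, the median was -0.10 and 13 had a mean below 1 CPM. Of these 23, 0 were higher and 1 was lower before adjustment, beside 5.1% and 4.32% of all genes. ALX1, a factor of the facial skeleton, was at 12.7, 13.8 and 10.7 CPM at 6ss and 4.44, 4.68, 6.24 and 8.55 CPM at 7ss, a log2 difference of -1.05 (edgeR adjusted p = 0.283). FABP7, a fatty acid binding protein of glial precursors, was at 296 to 441 CPM and 293 to 471 CPM.

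Genes of regional identity in the neural tube follow from front to back. SIX3, a factor of the forebrain and eye field, was at 3.73, 3.31 and 3.58 CPM at 6ss and 1.4, 0.83, 0.70 and 1.53 CPM at 7ss. The stages did not overlap, and the log2 difference was -1.65 ± 0.37, with an adjusted p of 0.138 in edgeR and 0.0132 in DESeq2. HESX1, another forebrain factor, was at 14.6, 8.34 and 5.71 CPM at 6ss and 3.47, 5.02, 3.63 and 6.44 CPM at 7ss, with overlap and a log2 difference of -1.04, which was -0.61 without 6ss replicate 1. None of the 31 measured neural tube genes passed in edgeR, 2 were higher and 7 lower at a p below 0.05 before adjustment, beside 5.1% and 4.32% of all genes, and the median log2 difference was -0.11.

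OTX2, which marks forebrain and midbrain, was at 23.7 to 33.6 CPM at 6ss and 21.0 to 26.9 CPM at 7ss, with an interval of -0.70 to 0.32. EN1, a factor of the midbrain-hindbrain boundary, was at 83.1, 152 and 189 CPM at 6ss and 204, 181, 80.0 and 108 CPM at 7ss. Its libraries overlapped over nearly their full range. PAX2, a factor of the same boundary, was at 48.8, 63.4 and 64.4 CPM and at 74.2, 124, 67.1 and 83.1 CPM. All libraries of PAX2 at 7ss were higher, with a log2 difference of 0.56. MEIS1, a homeobox cofactor of Hox and Pax proteins, was at 327, 347 and 219 CPM at 6ss and 457, 647, 539 and 510 CPM at 7ss. SOX3, a SoxB factor of neural progenitors, was at 6.84, 8.94 and 7.22 CPM at 6ss and 13.4, 17.0, 29.9 and 13.5 CPM at 7ss. Neither gene overlapped, and the log2 differences were 0.86 and 1.26 (edgeR adjusted p = 0.470 and 0.286).

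In the signaling lists, 0 of 42 Wnt genes, 0 of 33 Bmp and Tgf-beta genes, 0 of 25 Fgf genes and 0 of 38 genes of Notch, Hedgehog and retinoic acid passed in edgeR. The medians were 0.07, -0.09, 0.15 and -0.11 on the log2 scale. Before adjustment, 0 Wnt genes were higher and 1 lower at a p below 0.05, 1 and 6 in the Bmp list, 2 and 2 in the Fgf list and 1 and 6 in the last list, beside 5.1% and 4.32% of all genes. DESeq2 called CHRD and FGFR2 of these lists, both lower.

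CYP26A1, the enzyme that degrades retinoic acid in the anterior embryo, was at 51.2, 72.2 and 60.2 CPM at 6ss and 16.2, 21.2, 34.2 and 18.3 CPM at 7ss. The stages did not overlap, and the log2 difference was -1.44 ± 0.39 (edgeR adjusted p = 0.225, DESeq2 adjusted p = 0.0702). FST encodes follistatin, an antagonist of activins and Bmps, and was at 166, 190 and 136 CPM at 6ss and 67.4, 113, 83.3 and 61.7 CPM at 7ss. It was lower in each library of 7ss, by 1.01 ± 0.29 on the log2 scale (edgeR adjusted p = 0.279). SFRP1, a secreted Wnt antagonist, was at 23.9, 21.9 and 14.4 CPM and at 6.47, 10.2, 9.31 and 13.5 CPM, and BMP5, a Bmp ligand, at 23.5 to 35.5 CPM and 12.8 to 18.0 CPM, both without overlap.

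WNT1 and WNT3A are Wnt ligands of the dorsal neural tube. WNT1 was at 28.3, 36.7 and 56.3 CPM at 6ss and 33.8, 19.6, 21.9 and 22.6 CPM at 7ss. WNT3A was at 107, 141 and 126 CPM at 6ss and 288, 302, 74.6 and 240 CPM at 7ss. Both overlapped between the stages, WNT3A through 7ss replicate 3 alone, and its log2 difference was 0.86 with and 1.15 without that library. SPRY2, a feedback inhibitor that Fgf signaling induces, was at 994, 1422 and 473 CPM at 6ss and 1353, 2533, 1839 and 1858 CPM at 7ss, with a log2 difference of 0.98 (edgeR adjusted p = 0.461). FGF8, a ligand of the midbrain-hindbrain boundary, was at 4.19 to 5.48 CPM and 4.42 to 8.70 CPM. LFNG, a modifier of the Notch receptor, was at 63.0 to 74.97 CPM at 6ss and 35.9 to 54.4 CPM at 7ss without overlap.

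None of the 14 stem cell genes passed in edgeR or DESeq2. Before adjustment, 0 were higher and 2 lower at a p below 0.05, beside 5.1% and 4.32% of all genes. The median log2 difference was -0.10, and 5 of the 14 had an interval within 0.75 of zero. NANOG, a homeobox factor of pluripotent cells, was at 1.64, 1.56 and 1.64 CPM at 6ss and 1.45, 1.22, 1.54 and 3.11 CPM at 7ss. Its interval of -0.76 to 1.14 included zero, and the sign of its difference turned without 7ss replicate 4. Pou5f3, the chick relative of Oct4, was at 3.26 to 4.19 CPM at 6ss and 2.88 to 6.28 CPM at 7ss, with an interval of -0.42 to 0.63. KLF4 was at or below 0.19 CPM in all 7 libraries. LIN28A, an RNA-binding regulator of growth and differentiation, was at 439 to 493 CPM and 456 to 555 CPM, with an interval of -0.27 to 0.45.

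SALL4 and SALL1 are Spalt zinc finger factors. SALL4 was at 90.4, 87.0 and 142 CPM at 6ss and 73.1, 67.6, 71.9 and 72.6 CPM at 7ss, without overlap, and the 4 libraries of 7ss lay close together. The log2 difference was -0.58 ± 0.16 with an interval of -0.89 to -0.26 (edgeR adjusted p = 0.225, DESeq2 adjusted p = 0.0549), and it was -0.31 without 6ss replicate 3. SALL1 was at 901, 474 and 259 CPM at 6ss and 248, 262, 327 and 191 CPM at 7ss, with overlap. Its log2 difference was -1.08, and -0.52 without 6ss replicate 1.

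None of the 39 measured cell cycle genes passed in either test, the median was 0.05, and 20 of them had an interval within 0.75 of zero. MCM3, MCM4 and MCM5, subunits of the helicase that opens replication origins, were each higher without overlap. MCM4, for example, was at 54.4, 66.0 and 56.1 CPM at 6ss and 83.7, 89.6, 94.5 and 84.9 CPM at 7ss, a log2 difference of 0.58 (edgeR adjusted p = 0.505). The 95% interval of MCM3, -0.04 to 1.05, included zero. MCM2 and MCM6 of the same helicase overlapped between the stages, and MCM7 was not among the genes tested. CCNB1, the cyclin of entry into mitosis, was at 502, 536 and 832 CPM and at 480, 420, 430 and 393 CPM, a log2 difference of -0.53. Without 6ss replicate 3 that difference was -0.27. CCNB1 averaged 468 CPM at 5ss and 425 CPM at 8ss, both below its mean of 623 CPM at 6ss. CDK6, a kinase of the G1 phase, was at 16.8 to 20.2 CPM and 7.17 to 11.8 CPM. At a p below 0.05 before adjustment, 4 genes of this list were higher and 2 lower, beside 5.1% and 4.32% of all genes. Without overlap, 6 were higher and 2 lower, beside 4.44% and 3.21% of all genes. MKI67 and TOP2A, which mark dividing cells, were lowest in 7ss replicate 3, at 37.6 and 217 CPM, against 101 to 146 and 394 to 509 CPM in the other 6 libraries. None of 20 glycolysis genes passed in either test, the median was -0.04 and 10 had an interval within 0.75 of zero. Before adjustment, 1 of the 20 was higher and 1 lower, beside 5.1% and 4.32% of all genes. Without 7ss replicate 3 the medians of the migration, lineage and glycolysis lists turned in sign, to 0.07, 0.05 and 0.03, and without 6ss replicate 1 that of the cell cycle list was -0.06.

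Markers of neighboring tissues were measured as a check of the dissection. The summed level of 24 epidermis and placode markers was 1694 to 1855 CPM at 6ss and 1281 to 1560 CPM at 7ss, and that of 18 markers of head mesenchyme and mesoderm was 59.2 to 80.6 and 48.6 to 53.0 CPM. Both sums were lower in all libraries of 7ss. CLDN1, described above, is among the epidermis markers and held most of their sum. It averaged 1185 of 1758 CPM at 6ss and 887 of 1411 CPM at 7ss. The 17 endoderm markers summed to 101 to 229 and 67.7 to 125 CPM, the 14 notochord and floor plate markers to 37.97 to 85.9 and 24.0 to 43.0 CPM, and the 26 heart, blood and vessel markers to 64.8 to 67.4 and 51.1 to 75.5 CPM. The median log2 differences of these 5 lists were -0.09, 0.05, -0.80, -0.78 and -0.23, and without 6ss replicate 1 the endoderm and notochord medians were -0.97 and -0.60. In the same order, 5, 10, 10, 7 and 12 of their genes had a mean below 1 CPM. For 6 genes of late differentiated tissues, 4 of them below 1 CPM, the median was -0.73, and -0.28 without 6ss replicate 1. Without 7ss replicate 3 the epidermis median was -0.25 and that of head mesenchyme and mesoderm turned in sign, to -0.25. None of the genes of these 5 lists passed in edgeR. Before adjustment, 1, 0, 1, 0 and 0 genes of the lists were higher and 3, 1, 4, 7 and 3 lower at a p below 0.05, beside 5.1% and 4.32% of all genes, and DESeq2 called FOXA1, FOXA2 and CHRD lower. In the 7 libraries no marker that could be tested was without reads throughout, and RUNX1, a factor of blood stem cells, was among those that had none at 7ss. KRT7, a keratin of surface ectoderm, was at 36.2, 69.8 and 58.8 CPM at 6ss and 24.7, 30.3, 32.5 and 19.4 CPM at 7ss. KRT7 averaged 26.8 CPM at 5ss and 33.6 CPM at 8ss. The part that a different share of epidermis, endoderm or midline tissue had in the other differences was not tested, and in bulk tissue fewer cells of a type and less RNA per cell cannot be told apart.

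The stages on either side were then used to ask whether genes that change over a longer interval had moved in the step. In the 38 libraries without 6ss and 7ss, 615 of 18393 genes (3.34%) were called between 5ss and 8ss, of which 277 rose (1.51%) and 338 fell (1.84%). The collection at 8ss took the dorsal neural tube up to the migratory front, while 5ss, like 6ss and 7ss, was taken as neural fold tissue, so the dissection and the stage cannot be told apart in this comparison. Of the 277 genes that rose, 241 (87.0%) had a positive log2 difference from 6ss to 7ss, beside 50.1% of all genes. Their median was 0.40, beside 0.00070 for all genes. Of the 338 that fell, 281 (83.1%) had a negative one, beside 48.9% of all genes, with a median of -0.32. The medians over the whole interval were 1.39 and -1.36. Levels did not overlap between 6ss and 7ss for 65 of the rising genes (23.5%, all higher at 7ss) and for 47 of the falling genes (13.9%, all lower), against 4.44% and 3.21% of all genes. Among the 8172 genes with a mean of at least 5 CPM, 575 were higher and 255 lower without overlap. None of the 615 passed the test from 6ss to 7ss by itself.

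By library, the median of the 277 rising genes relative to the mean of 6ss was -0.08, 0.11 and -0.03 at 6ss and 0.43, 0.50, 0.39 and 0.25 at 7ss. The stages did not overlap, and 7ss replicate 3 lay among the others. The median of the 338 falling genes was 0.08, -0.15 and 0.07 at 6ss and -0.40, -0.26, -0.68 and -0.05 at 7ss. Here 7ss replicate 4 was above 6ss replicate 2, so the stages overlapped, and 7ss replicate 3 was lowest.

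**Figure D4:**
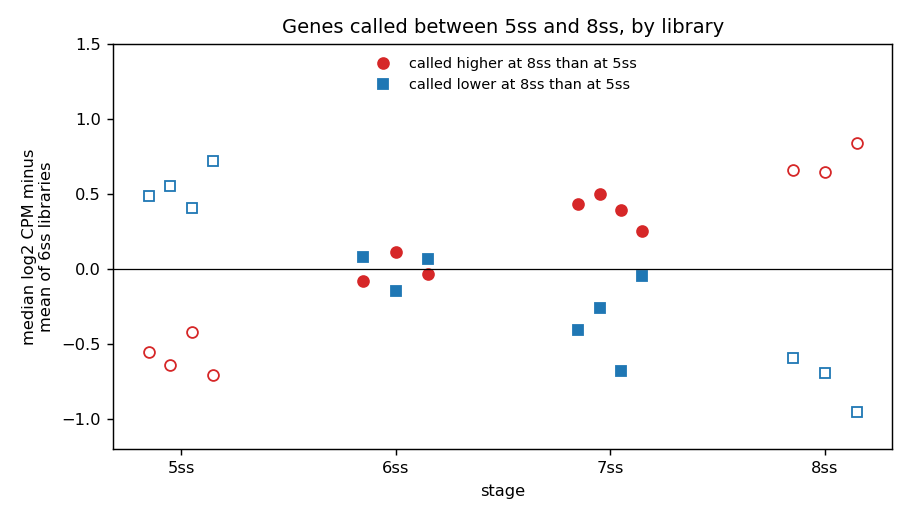
Median log2 CPM of the 277 genes called higher (red circles) and the 338 called lower (blue squares) at 8ss than at 5ss, minus the mean of the 6ss libraries, against stage. Each point is a library, filled for 6ss and 7ss and open for 5ss and 8ss, whose libraries chose the genes. The red points of 7ss lie at 0.25 to 0.50, between those of 6ss and 8ss.

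Of the 497 listed genes tested, 28 rose and 30 fell from 5ss to 8ss, beside 1.51% and 1.84% of all genes. In the fit, 23 of the 28 were higher at 7ss than at 6ss and 26 of the 30 lower, beside 50.1% and 48.9% of all genes. The median log2 differences of the 28 and the 30 were 0.43 and -0.36. SOX10 rose 2.56 on the log2 scale from 5ss to 8ss, CXCR4 2.27, WNT3A 2.48, COL9A3 3.03, COL9A1 2.13, SPRY2 1.99, PAX2 2.06 and PAX3 1.06. These 8 were among the 23 that were higher at 7ss, by 0.52 to 1.57. ETS1, MYC, RXRG, EN1 and FABP7 also rose from 5ss to 8ss, by 1.47, 1.79, 1.67, 2.19 and 0.89, but their differences from 6ss to 7ss were between -0.12 and 0.21. For these 5 genes the libraries of 6ss and 7ss overlapped. The 5 of the 28 that were lower at 7ss in the fit, all with overlap, included MYC, FABP7, WNT4 (a Wnt ligand, -0.39) and SHH. SHH, the ligand made in the ventral midline, was below 1 CPM in all 7 libraries, at 0.90 CPM in 6ss replicate 1 and at most 0.061 CPM in the others, and its log2 difference was -4.32 with that library and -1.06 without it. In the other direction, CYP26A1 was lower by 3.95 at 8ss, SHISA2 (in none of the lists) by 3.16, SIX3 by 2.83, FST by 2.80, HESX1 by 2.24, FGFR2 by 1.74, SALL4 by 1.49, SFRP1 by 1.47 and FN1 by 1.38. From 6ss to 7ss, these 9 genes had log2 differences of -1.65 to -0.58. The 4 of the 30 that were not lower in the fit were ZIC1, LAMC1, CYP26C1 and EPHA4, with log2 differences of up to 0.20 and overlap. SNAI2, FOXD3, TFAP2A, SOX9, PAX7 and MSX1 were not called between 5ss and 8ss.

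Of the 36 genes that DESeq2 called from 6ss to 7ss, 14 were called in the same direction from 5ss to 8ss in edgeR. Of all genes, 1.51% were called higher and 1.84% lower from 5ss to 8ss. One gene without a symbol, ENSGALG00000050884, was called in the opposite direction.

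Set beside the other steps between consecutive stages, that from 6ss to 7ss ranked 9 of 11 by the number of genes called. The step before it, from 5ss to 6ss, had 19 genes called higher and 23 lower, and the step after it, from 7ss to 8ss, had 4 and 3. These steps share libraries with the one described. In DESeq2 the step ranked 8, with 172 genes called from 5ss to 6ss and 40 from 7ss to 8ss.

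**Figure D5:**
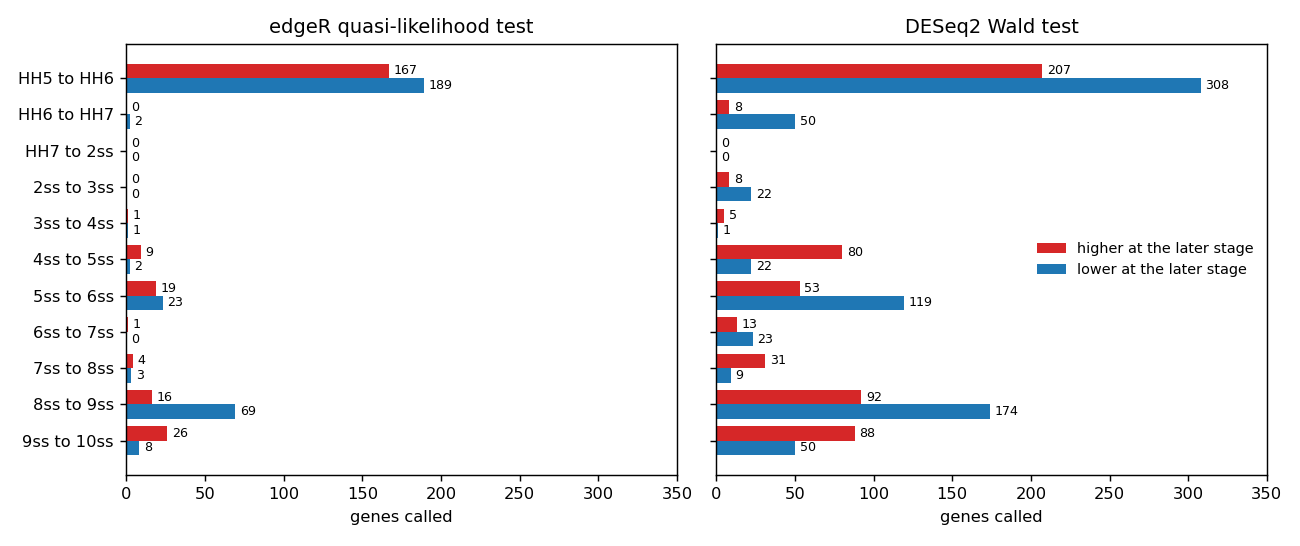
Number of genes called in each of the 11 steps between consecutive stages, on a linear axis, with edgeR on the left and DESeq2 on the right. Red bars count genes higher at the later stage and blue bars those lower. From 6ss to 7ss, edgeR called 1 and 0 genes and DESeq2 13 and 23.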

How the data were processed

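Bulk RNA of midbrain-level neural crest tissue was analysed in 3 libraries of 6ss and 4 of 7ss, within a fit of all 45 libraries of the series. The authors prepared unstranded libraries, so overlapping and antisense genes cannot be told apart, pooled them and sequenced them on separate runs that the labels do not assign to libraries. They mapped the reads with STAR (2.7.2a and build GRCg6a in the submitters' processing notes, another version of STAR in the methods) and deposited counts, whole numbers of reads per gene without normalization, for 24356 genes. They also deposited a filtered table, in which each of the 18525 genes exceeds 5 reads in some library, and a scaled signal for those genes, which equals the CPM used here within a relative difference of 1e-06 in all 833625 values. The annotation release is not given in the sources used here. No coordinates or sequences are printed. The methods give the same number of replicates for each stage, whereas 6ss has 3 libraries here.

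The tests used the deposited counts in R 4.3.3 with edgeR 4.0.16 (trimmed mean of M-values, glmQLFit and glmQLFTest, 12 stage groups) and Benjamini-Hochberg adjustment over all 18525 genes, and a gene was called at 0.05 on the adjusted p with a log2 change of over 0.75 either way. These are the filter and thresholds of the study's methods, which used DESeq2. DESeq2 1.42.0 gave an alternative, with an adjusted p for 13497 genes. Intervals are 95% intervals from the standard error and total degrees of freedom of the fit. CPM values are TMM-scaled, and log2 CPM used a prior count of 2. The comparison of 8ss with 5ss was fitted to the 38 libraries without 6ss and 7ss. A gene's groups did not overlap when all values of a stage lay above all of the other. Symbols came from the deposited tables for 12245 genes and from RefSeq names for 1136 more.

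Named genes are called genes that have a symbol, average 5 CPM or more in the 7 libraries and do not overlap (at most 12 in each direction), and members of 21 lists, of which 497 genes were tested and none passed. The gene that edgeR called is not reported here. The further lists, of 28 immediate early and stress genes and 6 genes of late differentiated tissues, had medians of 0.12 and -0.73 on the log2 scale. The sign of the first median turned without single libraries, to -0.0049 without 7ss replicate 3 and -0.12 without 6ss replicate 1. The part of the series described here, its lists and the rule were chosen with earlier results of these data known. The tests were tried on simulated counts. Alternatives were other scalings, filters and tests, replicate blocks, a term for the libraries numbered 4 and leaving out each library in turn. The replicate numbers were not taken as pairs, and the labels do not say whether equal numbers mark a shared collection. Intervals for counting error are not given, since PCR reads without molecular identifiers are not independent molecules.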

Additional observations from a re-analysis of the deposited data

Results flagged for a closer look

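In groups of 4 libraries, a value is listed here when its gap to the nearest other value, as a share of the group's range, exceeds Dixon's critical value at 95%, which chance does in about 1 in 20 groups. Of 94 groups tested at 7ss, 4 had such a value. CDH2 was at 24.2 CPM and ECHDC3 at 42.0 CPM in replicate 3. FOXD3 was at 8.54 CPM in replicate 1, and NANOG at 3.11 CPM in replicate 4. The 3 libraries of 6ss are too few for this comparison.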

How the results depend on the processing

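The count of genes called from 6ss to 7ss was 1, and it was 0 with DESeq2 size factors in edgeR, with glmTreat, without a filter beyond 1 read, with only the 7 libraries and with the term for libraries numbered 4, 1 with upper quartile scaling and with filterByExpr, and 36 with DESeq2's Wald test. It was 0 without each of the 7 libraries in turn (0 to 0). A replicate block gave 0 genes over all 45 libraries and 0 over numbers 1 to 3 of 6ss and 7ss. Deviations of same-numbered libraries correlated at -0.16, 0.26 and 0.097, and 6ss replicates 1 and 3 correlated best with other numbers, so the numbers were not taken as pairs. From 5ss to 8ss, 615 genes were called, 932 with DESeq2's Wald test and 353 to 672 when a library was left out, the lowest without 8ss replicate 3. The replicate block there gave 681. The rank of the step was 8 or 9 under the alternatives run for it. The median of the rising genes lay between 0.34 and 0.47 and that of the falling genes between -0.45 and -0.24 without single libraries, an alternative chosen after seeing the data. With 3 libraries at 6ss, the typical half-width of a 95% interval was 0.46 on the log2 scale for genes of at least 5 CPM and 0.82 over all genes, so smaller differences could not be told from zero for a typical gene. Of 1544 alternative values for 91 genes examined, 40 in 13 genes changed sign, none of them called. Where a result changed, the cause was not tested.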
